A study of Mus musculus with 10 samples.

Results

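Double-stranded RNA sensors are the proteins with which a mammalian cell recognises long or structured RNA, such as that of replicating viruses. The 9 genes described here, Tlr3, Ddx58, Ifih1, Dhx58, Eif2ak2, Mavs, Adar, Zbp1 and Ticam1, were chosen by symbol, and every probe set annotated to 1 of these symbols alone was taken. They had 20 probe sets, of 45101 on the array, and stood among 18193 genes with a probe set of their own. RNA of LSK/CD48- bone marrow cells, a sorted fraction that carries Sca-1 and Kit, lacks lineage markers and CD48 and is enriched for haematopoietic stem cells, was measured on Affymetrix Mouse Genome 430 2.0 arrays. The Mll-deficient group was 5 Mx1-cre;Mll F/F mice, whose floxed alleles of Mll (now Kmt2a), which encodes a histone methyltransferase, are deleted by an interferon-inducible cre. The control group was 5 Mll F/F mice without cre. All 10 mice were 8-week-old females on the B6.SJL-Ptprca Pep3b/BoyJ background. Each mouse, with or without cre, was injected with polyinosinic:polycytidylic acid (pI:pC) at 10 µg per gram plus 50 µg, every 48 hours for 6 days and 3 times in all. Cells were sorted on day 6, and each mouse gave 1 array. Mx1-cre acts in every cell that responds to interferon, not in stem cells alone, and cre and Mll loss came together in the design.

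The injected agent is itself synthetic double-stranded RNA, a ligand of these sensors. In the endosome it binds Tlr3, which signals through the adaptor Ticam1. In the cytosol the RIG-I-like helicases, RIG-I (encoded by Ddx58) and MDA5 (encoded by Ifih1), bind it and signal through the mitochondrial adaptor Mavs. Both routes activate interferon regulatory factors and NF-kB, and the interferon made then raises several of the sensor genes in turn. Because both groups received the agent and no uninjected mice were analysed here, the levels below are those after the treatment, and the comparison is of Mll-deficient with control cells under it.

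The feedback from interferon acts through a promoter element, the interferon-stimulated response element (ISRE), here searched on both strands as GAAA, any 2 bases (NN) and GAAA again. RefSeq promoter windows of build GRCm38.p6, from 250 bases before to 50 bases after a transcription start, matched 7 of the 9 genes, with 9 windows. Dhx58 and Zbp1 had no window and were not searched. The letters were found once in each of 3 windows, those of Ddx58, Ifih1 and Eif2ak2, and in 3.44% of all 32851 windows of this length. These 3, the windows with a match, are shown with the match in capitals and 5′ to 3′ on the gene's strand. The Ddx58 window is chr4:40239776-40240075, the Ifih1 window chr2:62646206-62646505 and the Eif2ak2 window chr17:78882523-78882822, all on the minus strand.
Ddx58: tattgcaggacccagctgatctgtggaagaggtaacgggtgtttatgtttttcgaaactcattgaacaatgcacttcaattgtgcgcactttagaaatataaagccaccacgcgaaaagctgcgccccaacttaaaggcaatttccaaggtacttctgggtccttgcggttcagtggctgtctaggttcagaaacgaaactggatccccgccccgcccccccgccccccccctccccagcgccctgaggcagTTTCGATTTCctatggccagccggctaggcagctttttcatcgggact
Ifih1: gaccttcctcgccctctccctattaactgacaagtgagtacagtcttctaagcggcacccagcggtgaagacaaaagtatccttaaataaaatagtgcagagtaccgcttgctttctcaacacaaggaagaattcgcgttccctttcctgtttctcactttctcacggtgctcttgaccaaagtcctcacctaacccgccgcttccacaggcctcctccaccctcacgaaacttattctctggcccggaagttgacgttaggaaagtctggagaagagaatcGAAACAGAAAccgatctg
Eif2ak2: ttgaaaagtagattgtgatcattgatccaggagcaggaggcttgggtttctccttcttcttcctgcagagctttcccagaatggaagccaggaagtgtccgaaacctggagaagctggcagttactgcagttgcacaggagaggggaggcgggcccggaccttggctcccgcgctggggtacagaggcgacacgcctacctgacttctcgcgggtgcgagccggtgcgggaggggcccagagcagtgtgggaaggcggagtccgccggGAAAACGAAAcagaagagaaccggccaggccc
Counted from the transcription start as base 1, the match began at base 3 in Ddx58, where it reads on the opposite strand, at base 33 in Ifih1 and at base 19 in Eif2ak2. The interferon-gamma activated site, searched as TTCNNNGAA, was found in 1 window of Eif2ak2, 1 of the 3 windows of Adar and 8.3% of all windows. A match is a run of letters and no measured binding. Near matches were not searched, so a window without a match may still hold a variant of the element.

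The values are scaled array signals in arbitrary units, with the same trimmed mean on every array. Differences are Mll-deficient minus control on the scale log2(signal + 16), from a limma fit to all tested probe sets with Benjamini-Hochberg adjustment and a threshold of 0.05, each with its standard error (SE). The offset of 16 understates the change of dim probe sets. Probe sets whose mean was among the lowest 40% were not tested, which put the limit at a signal of 12.2. Of the 20 probe sets 18 passed that filter, with at least 1 for each of the 9 genes. Probe sets differ in how they bind, so levels were compared between groups and never between probe sets.

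Control replicate 5 differed from the other arrays: its mean correlation with the controls was 0.918, and it had a 3' to middle ratio of Gapdh and Actb, a measure of RNA quality, of 5.24 on the log2 scale. The ratio averaged 3.16 ± 0.60 in Mll-deficient arrays and 2.97 ± 1.42 in controls (SD, n = 5 each, two-sided exact permutation p = 0.810). The 2 probe sets of Kmt2a did not pass in a fit without the filter (differences of -0.38 ± 0.35 and -0.55 ± 0.31, SE, adjusted p = 0.736 and 0.498), and since where they lie relative to the deletion was not analysed, the deletion is unchecked here. Of 11 tested erythroid marker genes 8 rose, beside 3.76% of all tested genes. The summed signal of the 11 ran from 16298.9 to 18365.9 in Mll-deficient arrays and from 3935.0 to 7804.4 in controls. Slc4a1 and Alas2 did not pass. Slc4a1 reached 2751 among controls, whose median was 18.7, and 352.3 among Mll-deficient arrays. Alas2 reached 130.2 among controls and 65.7 among Mll-deficient arrays. Of 11 tested macrophage and dendritic cell markers Vcam1 fell and 10 did not pass, with sums of 1255.0 to 2154.5 in Mll-deficient arrays and 1391.8 to 1950.2 in controls, and Mrc1, C1qa, C1qc, Xcr1, Clec9a and Cd209a were too dim to be tested or had no probe set. Of 6 tested genes of the stem cell gate Hlf fell, and 4, Hlf included, were lower at an unadjusted p under 0.05. Among all tested genes 1.76% fell and 10.2% were lower at an unadjusted p under 0.05. The sums of the stem cell gate genes were 860.7 to 2454.9 in Mll-deficient arrays and 1376.8 to 4346.8 in controls. Kit, which the sort selects for, read 72.3 ± 27.1 in Mll-deficient and 126.3 ± 34.2 in control cells (SD, n = 5 each, adjusted p = 0.132), and Ly6a, the gene of Sca-1, was not tested. In the other marker lists none of the granulocyte and monocyte (12), B cell (8), T and natural killer cell (5), megakaryocyte (7) or stroma and endothelium (5) genes passed. The granulocyte and monocyte sums were the largest, 114626.0 to 186682.4 in Mll-deficient arrays and 102131.4 to 167297.5 in controls. S100a8, the brightest of these genes, averaged 25890 in Mll-deficient and 23790 in control arrays. At an unadjusted p under 0.05, 3 of the 12 were higher and 1 lower, beside 10.5% and 10.2% of all tested genes. The part of cell makeup in the differences below was not tested, and in sorted bulk RNA fewer cells of a type and less RNA per cell cannot be told apart.

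No sensor or adaptor gene passed the test. Of the 18 tested probe sets 0 had an adjusted p under 0.05 in limma, where 3.28% of all 27022 tested probe sets did and 1.16% fell, and the smallest adjusted p was 0.0933, for Ddx58. At an unadjusted p under 0.05, 4 of the 18 were lower in Mll-deficient cells and 0 higher, beside 10.3% lower and 8.06% higher among all tested probe sets. These 4 were a pair from Ddx58 and 1 each from Ifih1 and Adar, and their number was 2 after quantile normalization and 1 after median centring, with the replicate block, and without Mll-deficient replicate 3, control replicate 4 or control replicate 5. The difference was below 0 for 17 of the 18 and for 57.1% of all tested probe sets. It lay below 0 for 15 of 18 after quantile normalization and for 14 of 18 after centring each array on its median, when Eif2ak2 and Adar probe sets, and with centring also one of Mavs, changed sign. The median difference was -0.23 over the 18 and -0.07 over all tested probe sets. By gene, with the brightest probe set of each, 0 of 9 passed, where 5.52% of 12580 tested genes did, and all 9 differences were below 0, where 53.4% of those genes' were. The probe sets of a gene share its transcripts and are not independent.

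**Figure D1:**
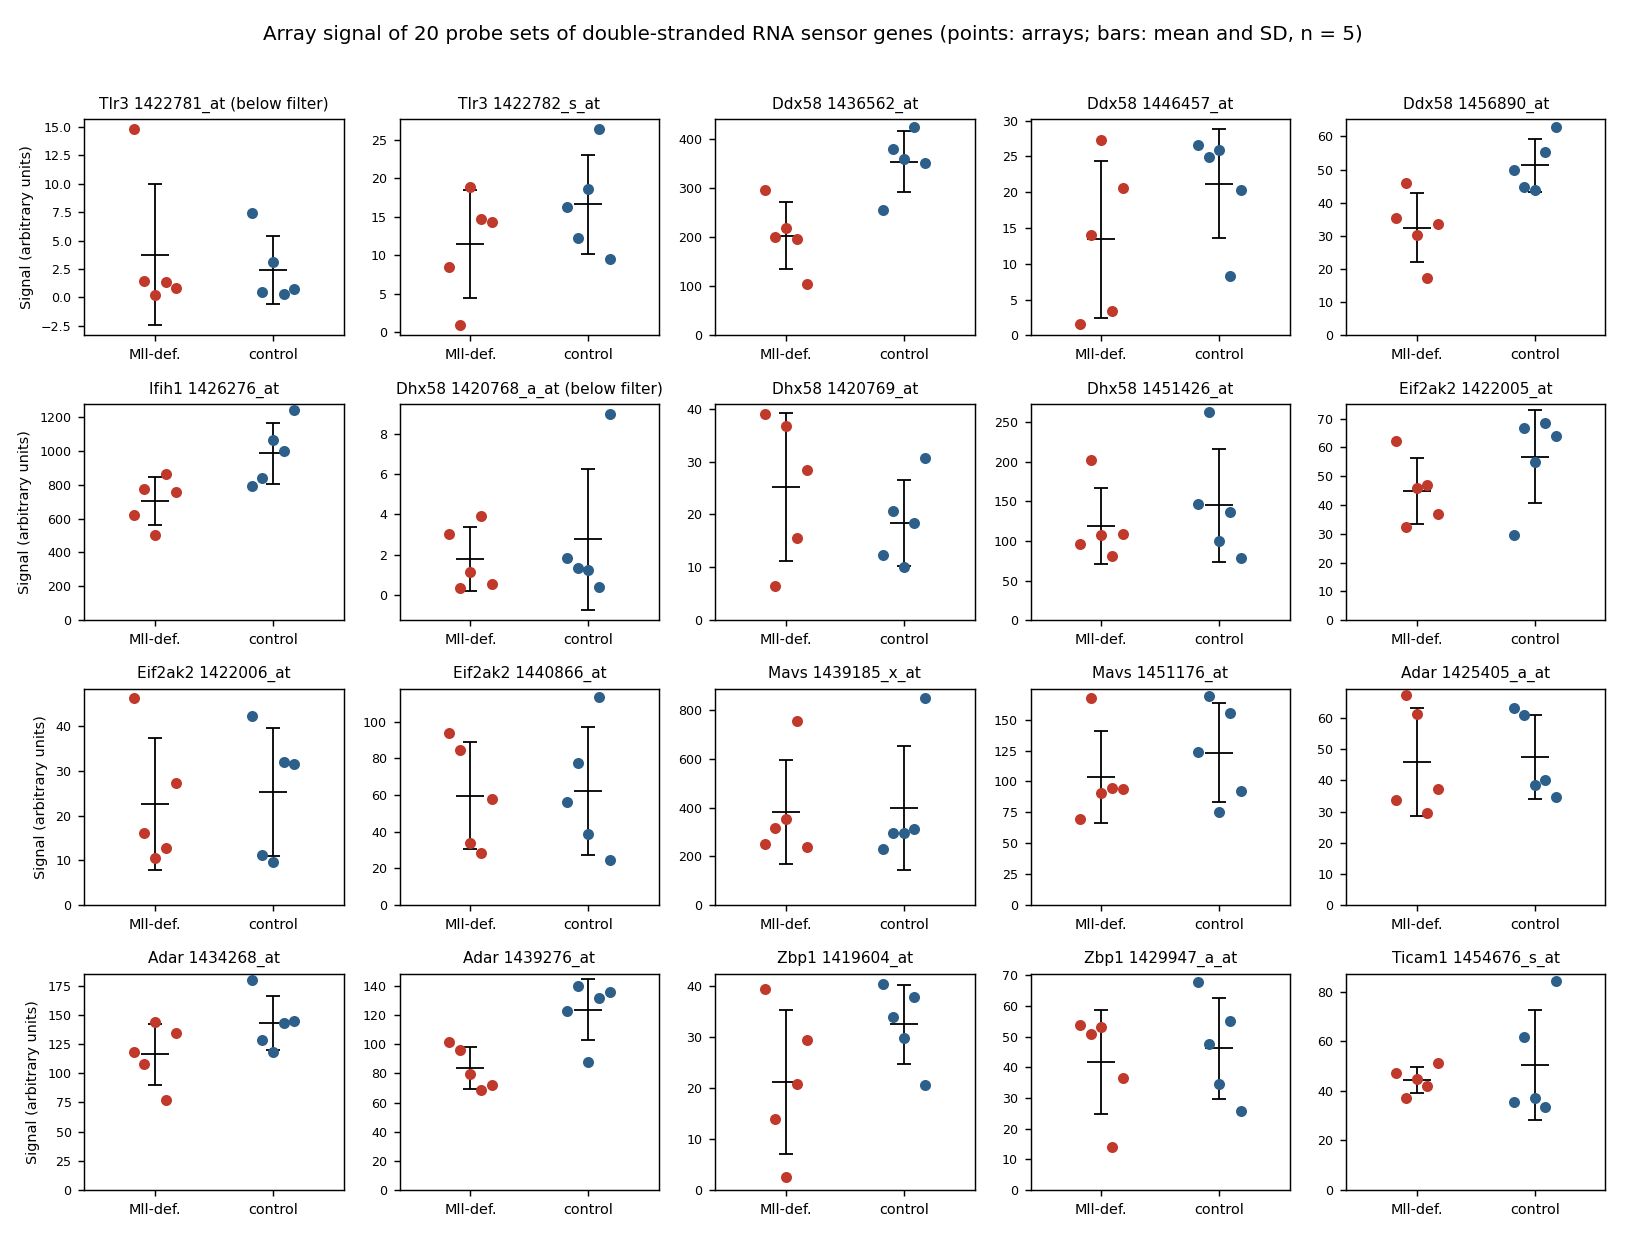
Scaled signal (arbitrary units, linear axes) of each of the 20 probe sets on the 5 Mll-deficient arrays (red, left) and the 5 control arrays (blue, right), with the mean and SD as bars. For 1436562_at and 1456890_at of Ddx58 and 1426276_at of Ifih1, 4 of 5 Mll-deficient arrays lie below every control, and in no panel are the groups fully separate.

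Among the RIG-I-like receptors, Ddx58 gave the largest difference of the set, lower in Mll-deficient cells but short of the threshold. RIG-I recognises short double-stranded RNA and RNA with a 5′ triphosphate. Its brightest probe set, 1436562_at, read 294.9, 200.7, 218.6, 195.9 and 104.5 in Mll-deficient replicates 1 to 5, against 254.7, 378.9, 359.3, 423.7 and 350.4 in control replicates 1 to 5. The groups overlapped through Mll-deficient replicate 1 and control replicate 1, and the other 4 Mll-deficient arrays lay below every control. The means were 203 ± 67.9 in Mll-deficient and 353 ± 62.0 in control cells (SD, n = 5 each). The difference was -0.80 ± 0.25 (SE, 95% interval -1.33 to -0.27, limma adjusted p = 0.0933). In the gene-level fit the adjusted p was 0.0729.

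The other probe sets of Ddx58 were dimmer and also read lower. 1456890_at read 35.5, 46.0, 30.1, 17.3 and 33.5 in Mll-deficient replicates, against 49.7, 44.7, 43.8, 55.3 and 62.9 in controls. Again 4 of 5 Mll-deficient arrays lay below every control, and replicate 2 lay among them. Its difference was -0.49 ± 0.22 (SE, limma adjusted p = 0.250). 1446457_at, near the filter, ran from 1.58 to 27.3 in Mll-deficient and from 8.23 to 26.6 in control cells, and its difference was -0.40 ± 0.28 (adjusted p = 0.489). The call for Ddx58 depended on the processing: it passed when its 3 probe sets were averaged (-0.56, limma adjusted p = 0.0338) and when the RNA quality ratio was a covariate (-0.79, adjusted p = 0.0454 by probe set and 0.0367 by gene). The covariate is an alternative chosen with the data in view. It passed in none of the 10 fits that left out 1 array, where its adjusted p by probe set ran from 0.0661 to 0.228.

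Ifih1 encodes MDA5, the helicase that binds long double-stranded RNA and responds to pI:pC in mice. Its probe set, 1426276_at, read 621.6, 777.8, 502.9, 866.9 and 758.2 in Mll-deficient replicates, against 792.5, 839.5, 1065.5, 1002.4 and 1239.5 in controls. Mll-deficient replicate 4 lay above the lower pair of controls, and the other 4 Mll-deficient arrays lay below every control. The means were 705 ± 143 in Mll-deficient and 988 ± 180 in control cells (SD, n = 5 each), and the difference was -0.48 ± 0.21 (SE, 95% interval -0.94 to -0.03, limma adjusted p = 0.239). The highest control was replicate 5, the array with the highest 3' to middle ratio, and without it the difference was -0.40. At least 4 of 5 Mll-deficient arrays lay below every control for 3 of the 18 probe sets, those of Ddx58 and Ifih1 named here, and for 7.36% of all tested probe sets. Separation without any overlap was seen for 0 of the 18 and for 5.68% of all.

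Dhx58 encodes LGP2, the remaining RIG-I-like receptor, which lacks the signalling domain of the others and modulates them. 1451426_at ran from 80.6 to 202.3 with a median of 107.9 in Mll-deficient and from 78.4 to 263.2 with a median of 136.9 in controls. The groups overlapped throughout, and replicate 2 was the highest of each. The difference was -0.21 ± 0.30 (SE, limma adjusted p = 0.768). Of the 18 tested probe sets, 1420769_at was the one with a difference above 0, at 0.21 ± 0.27 (adjusted p = 0.741). It ran from 6.42 to 39.0 in Mll-deficient and from 10.1 to 30.7 in control cells. 1420768_a_at lay below the filter, at no more than 3.91 in Mll-deficient and 8.97 in control arrays.

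The endosomal receptor Tlr3 was dim on both probe sets. 1422782_s_at read 8.46, 0.899, 18.9, 14.6 and 14.3 in Mll-deficient replicates, against 16.3, 12.3, 18.5, 26.3 and 9.58 in controls. These values lie around the filter of 12.2, and the groups overlapped, with 2 Mll-deficient arrays below every control. The difference was -0.27 ± 0.24 (SE, limma adjusted p = 0.612). The suffix s marks a probe set whose probes can match transcripts of more than 1 gene, so its signal may not be of Tlr3 alone. 1422781_at lay below the filter, with a median of 1.31 in Mll-deficient and 0.768 in control cells.

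Eif2ak2 encodes PKR, a kinase that on binding double-stranded RNA phosphorylates the initiation factor eIF2 and so slows translation. Its 3 probe sets gave differences of -0.24 ± 0.24 (1422005_at), -0.10 ± 0.30 (1422006_at) and -0.02 ± 0.33 (1440866_at, SE, limma adjusted p = 0.646, 0.906 and 0.979). 1422005_at read 62.3, 32.2, 45.9, 46.9 and 36.9 in Mll-deficient replicates, against 29.7, 66.7, 54.9, 68.6 and 64.1 in controls. Control replicate 1 was low and Mll-deficient replicate 1 high, and the groups overlapped across most of their range. 1440866_at varied most within groups, from 28.2 to 93.5 in Mll-deficient and from 24.6 to 113.3 in control cells, and its sign turned under both other scalings.

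Zbp1 encodes a sensor of left-handed (Z-form) nucleic acid that can start inflammatory cell death through Ripk3. 1419604_at read 39.4, 13.9, 2.45, 20.8 and 29.3 in Mll-deficient replicates, against 40.4, 33.9, 29.8, 37.7 and 20.6 in controls. 1429947_a_at read 53.8, 50.9, 53.3, 14.0 and 36.6 in Mll-deficient replicates, against 67.7, 47.7, 34.4, 55.1 and 25.8 in controls. The groups overlapped on both. The lowest Mll-deficient array was replicate 3 on the first and replicate 4 on the second, so the probe sets did not single out the same mouse. The differences were -0.46 ± 0.28 and -0.13 ± 0.28 (SE, limma adjusted p = 0.405 and 0.858).

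Adar encodes the enzyme that edits adenosine to inosine in double-stranded RNA and keeps the cell's own RNA from the sensors. 1439276_at read 101.5, 96.3, 79.8, 68.7 and 71.8 in Mll-deficient replicates, against 123.1, 139.9, 88.0, 131.6 and 135.8 in controls. All Mll-deficient arrays lay below 4 of the controls, and control replicate 3 lay among the Mll-deficient ones. The difference was -0.49 ± 0.22 (SE, 95% interval -0.94 to -0.03, limma adjusted p = 0.238). The brighter 1434268_at, with 116 ± 26.2 in Mll-deficient and 143 ± 23.3 in control cells (SD, n = 5 each), differed by -0.28 ± 0.22 (adjusted p = 0.550). The dimmest, 1425405_a_at, differed by -0.06 ± 0.25 (adjusted p = 0.934).

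The adaptors pass the signal on from the receptors, and none of their differences exceeded 0.22 in size. For Mavs, 1451176_at read 69.4, 167.2, 90.9, 94.7 and 94.1 in Mll-deficient replicates, against 123.5, 169.6, 75.6, 155.7 and 92.3 in controls, a difference of -0.22 ± 0.26 (SE, limma adjusted p = 0.718). The brighter 1439185_x_at read 249.7, 314.5, 353.9, 756.3 and 239.9 in Mll-deficient replicates, against 230.9, 297.8, 294.9, 312.5 and 851.7 in controls. One array in each group stood far above the rest, Mll-deficient replicate 4 and control replicate 5, and neither was the highest of its group on the other probe set. The suffix x marks probes that may match unrelated sequences, and the 3' to middle ratios of these arrays were 3.64 and 5.24. The part of either in these values was not tested. Its difference was -0.02 ± 0.34 (adjusted p = 0.984), and 0.29 without control replicate 5. For Ticam1, 1454676_s_at ran from 37.3 to 51.2 in Mll-deficient and from 33.4 to 84.5 in control cells, a difference of -0.08 ± 0.24 (adjusted p = 0.905). This probe set also carries the suffix s, so its signal may not be of Ticam1 alone.

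**Figure D2:**
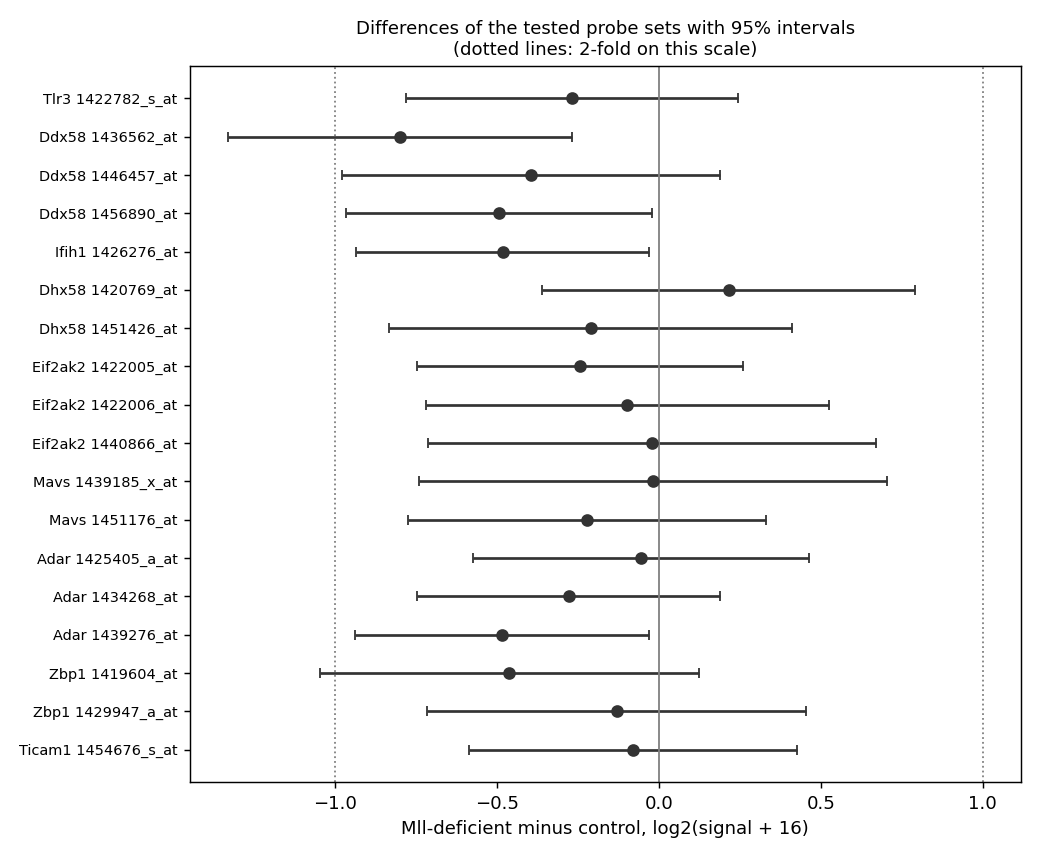
Differences (Mll-deficient minus control, log2(signal + 16)) of the 18 tested probe sets, as points with 95% intervals from limma, and dotted lines at 2-fold on this scale. The intervals reach a 2-fold fall on this scale for 2 probe sets (Ddx58 1436562_at and Zbp1 1419604_at) and a 2-fold rise for 0. For dim probe sets a 2-fold change of the signal itself lies inside the dotted lines.

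The intervals say what these arrays can and cannot show on this scale. For 16 of the 18 probe sets the 95% interval lay above a difference of -1, and for all 18 it lay below 1. The exceptions were 1436562_at of Ddx58, with a lower bound of -1.33, and 1419604_at of Zbp1, with a lower bound of -1.05. A difference of 1 is 2-fold in signal + 16, which is more than 2-fold in the signal itself, most of all for dim probe sets. For dim probe sets these counts therefore do not tell whether a 2-fold change of signal is excluded. Ddx58 1446457_at, for example, differed by -0.40 here and by -1.03 with an offset of 1. In simulated data of the same size and spread, 0 of 50 probe sets changed by 0.5 on the log2 scale were recovered. The counts were 23 of 50 changed by 1 and 46 of 50 changed by 2. The simulation gave 122 calls among 27022 probe sets, and the arrays gave 887. With fewer calls the adjusted threshold asks for a smaller unadjusted p. The simulated counts therefore do not measure what the test recovers in the arrays.

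The 9 genes did not vary together as 1 set from mouse to mouse, though some pairs did. After each group's mean was taken off, Pearson correlations over the 10 arrays between the brightest probe sets were above 0 for 14 of the 36 pairs, with a median of -0.09. They ran from -0.81 for Mavs (1439185_x_at) with Zbp1 to 0.72 for Adar with Zbp1, and Ddx58 with Ifih1 was at -0.14. Dhx58, Eif2ak2 and Zbp1 correlated with one another at 0.55 to 0.68, and Ifih1 with Mavs at 0.60. Those pairs were picked after their values were seen. The pairs with Mavs include control replicate 5, which read far above the other controls on that probe set. All these correlations are descriptions over arrays that share RNA quality and scaling. Of 12571 other genes, Snrnp200, Foxk2, Acad12, Hlcs and B4galnt4 followed the mean of the 9 most closely, with correlations of 0.871 to 0.888. Only Eif2ak2, Ddx58, Dhx58 and Zbp1 among the 9 had a correlation above 0.5 with that mean, which they help to form. The other genes named here are the highest of 12571 over 10 arrays, and whether their correlations exceed chance was not tested.

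The genes that carry the signal onward were counted by gene in lists. Of 9 tested endosomal RNA receptors and helpers, 0 passed in limma and 1 was lower at an unadjusted p under 0.05, beside 10.5% higher and 10.2% lower among all tested genes. That was Tlr13, a receptor of bacterial ribosomal RNA in mice, at 48.5 ± 23.0 in Mll-deficient and 102 ± 38.8 in control cells (SD, n = 5 each, -0.87 ± 0.28, SE, adjusted p = 0.0817). The next in p were Cnpy3, a chaperone of these receptors (-0.53, adjusted p = 0.441), and Slc15a4, an endolysosomal transporter (-0.14, adjusted p = 0.791). Of 28 cofactors and regulators of RIG-I and MDA5, 0 passed, with 1 higher and 2 lower at an unadjusted p under 0.05. Nearest were Cyld, a deubiquitinase that restrains RIG-I (-0.59 ± 0.21, adjusted p = 0.122), the kinase gene Riok3 (-0.53 ± 0.20, adjusted p = 0.134) and Zcchc3, an RNA-binding cofactor (0.53 ± 0.22, adjusted p = 0.179). Their other tested probe sets differed by -0.40 to -0.34 for Cyld, -0.74 to 0.04 for Riok3 and 0.20 for Zcchc3. Of 21 kinases and adaptors after Mavs and Ticam1, 0 passed, at either threshold. Smallest in p were Peli1, a ubiquitin ligase (-0.61, adjusted p = 0.291), the death-domain adaptor Fadd (0.43, adjusted p = 0.311) and Ikbkb, the kinase that releases NF-kB (-0.40, adjusted p = 0.354). Here the other tested probe sets differed by -0.60 to -0.58 for Peli1, -0.0086 for Fadd and -0.16 to -0.12 for Ikbkb.

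Of 18 transcription factors and coactivators after the sensors, 1 fell and 17 did not pass, beside 1.76% of all tested genes that fell. At an unadjusted p under 0.05, 3 were lower and 0 higher, beside 10.2% lower and 10.5% higher among all tested genes. The fall was Ep300, an acetyltransferase that Irf3 recruits, at 309 ± 118 in Mll-deficient and 650 ± 191 in control cells (SD, n = 5 each, -1.07 ± 0.28, SE, adjusted p = 0.0350). The groups were fully separate, but leaving out 1 array ended the call in 6 of 10 cases (Mll-deficient replicates 1, 3 and 5 and control replicates 1, 3 and 4, adjusted p up to 0.102), as did median centring (adjusted p = 0.0701). Nfkb2 (-0.79, adjusted p = 0.134), Stat2 (-0.63, adjusted p = 0.225) and the acetyltransferase gene Crebbp (-0.47, adjusted p = 0.259) were next, and the list median was -0.31, beside -0.04 over all tested genes. Of 12 genes of the Zbp1 cell death branch, 0 passed and 1 was lower at an unadjusted p under 0.05. This was Cflar, an inhibitor of caspase-8 (-0.81 ± 0.26, adjusted p = 0.0815), with Parp1 (0.47, adjusted p = 0.292) and Casp1 (-0.45, adjusted p = 0.309) next.

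The list around PKR holds its target eIF2, the exchange factor eIF2B and the integrated stress response. Of its 20 tested genes 3 rose and 17 did not pass, beside 3.76% of all tested genes that rose. At an unadjusted p under 0.05, 6 were higher and 1 lower, beside 10.5% higher and 10.2% lower among all tested genes. The 3 that rose were 1 subunit gene of eIF2 (Eif2s2) and a pair of eIF2B (Eif2b3 and Eif2b4). Eif2b3 read 159.5, 208.7, 254.6, 190.9 and 212.1 in Mll-deficient replicates, against 83.8, 115.2, 57.6, 73.3 and 41.0 in controls, with no overlap (1.34 ± 0.24, SE, limma adjusted p = 0.00516). Its call held in all 10 fits that left out 1 array. Eif2b4 rose by 0.89 ± 0.22 (adjusted p = 0.0269) and Eif2s2, the beta subunit of eIF2, by 0.67 ± 0.18 (adjusted p = 0.0364), and their groups were also separate. Each of these calls ended without any 1 of Mll-deficient replicates 1, 3, 4 and 5 and control replicates 3 and 4, and that of Eif2s2 also without control replicate 2, at adjusted p of up to 0.0739 for Eif2b4 and 0.100 for Eif2s2. Eif2s2 also missed the threshold with averaged probe sets, with the replicate block and without the intensity trend (adjusted p between 0.0529 and 0.0744), and 1 of its 5 other probe sets passed. Next in p were the eIF2B subunit genes Eif2b1 (1.30 ± 0.42, adjusted p = 0.0807) and Eif2b5 (0.98 ± 0.40, adjusted p = 0.172). Ddit3 followed (0.54 ± 0.22, adjusted p = 0.177), and its other tested probe set differed by -0.03. The remaining subunit genes tested, Eif2b2 (0.39, adjusted p = 0.268) and Eif2s3x (0.38, adjusted p = 0.369), did not pass either. Nor did the other eIF2 kinase genes Eif2ak3 (-0.55 ± 0.23, adjusted p = 0.181), Eif2ak1 (0.35, adjusted p = 0.501) and Eif2ak4 (0.23, adjusted p = 0.687). These subunit and kinase genes were named after their values were seen. The erythroid sums given above were separate between the same arrays, and their part in these rises and those of the next list was not tested.

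The next list holds genes of RNA decay and modification that shape double-stranded RNA, together with others such as Atad3a and Trim28. Of its 17 tested genes 3 rose and 14 did not pass, beside 3.76% of all tested genes that rose. At an unadjusted p under 0.05, 6 were higher and 1 was lower, beside 10.5% higher and 10.2% lower among all tested genes. All 3 that rose encode mitochondrial proteins. Supv3l1, a helicase, and Pnpt1, an exoribonuclease, together degrade mitochondrial RNA, and loss of PNPT1 in human cells lets mitochondrial double-stranded RNA reach MDA5. Pnpt1 read 414 ± 66.6 in Mll-deficient and 220 ± 37.0 in control cells (SD, n = 5 each, 0.87 ± 0.20, SE, adjusted p = 0.0198), and did not overlap. Supv3l1 read 284 ± 54.6 in Mll-deficient and 141 ± 57.9 in control cells (SE of the difference 0.26, adjusted p = 0.0359), with overlap. Atad3a, an ATPase of the inner membrane, rose by 1.04 ± 0.20 (adjusted p = 0.00656), and 2 of its 3 other probe sets passed. The other tested probe set of Pnpt1 differed by -0.0026, and its call ended with averaged probe sets (0.26, adjusted p = 0.357), with the replicate block (adjusted p = 0.0516) and without Mll-deficient replicate 5 (adjusted p = 0.0626). The call of Supv3l1 ended with median centring, with no filter (adjusted p between 0.0516 and 0.0532) and without any 1 of Mll-deficient replicates 1, 2, 3 and 5 and control replicates 1, 3 and 4 (adjusted p up to 0.0840). Next in p were Samhd1, a nuclease and dNTP hydrolase (-0.80 ± 0.25, adjusted p = 0.0729), Rnaseh2a, a subunit of the nuclease that degrades RNA in DNA hybrids (0.75 ± 0.24, adjusted p = 0.0841), and Trim28, a repressor of endogenous retroviruses (0.53 ± 0.18, adjusted p = 0.101). Of 21 other double-stranded RNA binding proteins 0 passed, with 1 higher and 2 lower at an unadjusted p under 0.05. Nearest were Cdkn2aip (-0.82, adjusted p = 0.0958), Nkrf (0.64, adjusted p = 0.117) and the interferon-induced Oasl2 (-0.97 ± 0.38, adjusted p = 0.150). Cdkn2aip was dim, with a mean of 11.2 in Mll-deficient arrays, near the filter.

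Of 10 tested outputs of the pathway, the chemokine genes Ccl3 and Ccl5 changed, Ccl5 up and Ccl3 down, and 8 did not pass. Among all tested genes 3.76% rose and 1.76% fell. At an unadjusted p under 0.05, 5 were lower (Ccl3, Ifit1, Ifit3, Ccl4 and Ifit2) and 1 was higher (Ccl5). The shares of all tested genes were 10.2% lower and 10.5% higher. Ccl3 fell to 14.2 ± 11.4 in Mll-deficient cells, near the filter, against 50.7 ± 13.7 in control cells (SD, n = 5 each, -1.20 ± 0.27, SE, limma adjusted p = 0.0183). Ccl5 read 406.2, 267.6, 431.1, 433.6 and 735.6 in Mll-deficient replicates, against 172.2, 267.3, 265.7, 148.9 and 106.5 in controls (1.18 ± 0.29, adjusted p = 0.0250). The groups were separate for both, by narrow margins. For Ccl5 the lowest Mll-deficient array read 267.6 and the highest control 267.3. For Ccl3 the highest Mll-deficient array read 29.7 and the lowest control 31.5. Among all tested probe sets 5.68% had separate groups. The call of Ccl3 ended without Mll-deficient replicate 3 or 5 or control replicate 1 (adjusted p up to 0.0560), and its difference was -2.18 with an offset of 1 and -0.56 with an offset of 64. The call of Ccl5 ended without Mll-deficient replicate 3 or 5 or control replicate 1 or 4 (adjusted p up to 0.0763). Ccl5 is also made by T and natural killer cells, whose 5 tested markers summed to 650.0 to 1562.7 in Mll-deficient arrays and 320.7 to 724.7 in controls. Nkg7 made up most of these sums (871 ± 278 in Mll-deficient and 447 ± 145 in control cells, SD, n = 5 each, limma adjusted p = 0.0583), and 1 Mll-deficient array read 448.8 for Gzma, whose medians were 37.6 in Mll-deficient and 41.7 in control cells. Cd3d (35.9 and 27.2), Cd8a (17.7 and 14.0) and Ncr1 (11.4 and 16.1, means of Mll-deficient and control arrays) were dim, and Cd3e, Cd3g, Cd4, Lck and Klrb1c were not tested. The part of such cells in the result was not tested. Ifit1, an interferon-induced RNA-binding protein gene, came next (-1.01 ± 0.31, adjusted p = 0.0635), then Ifit3 (-0.85, adjusted p = 0.0995), the chemokine gene Ccl4 (-0.54, adjusted p = 0.158) and Ifit2 (-0.62, adjusted p = 0.162, named after its value was seen). Ifnb1, Ifna4, Ifnl3, Il6, Il12b and Isg15 were not among the tested genes. The list median was -0.52.

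**Figure D3:**
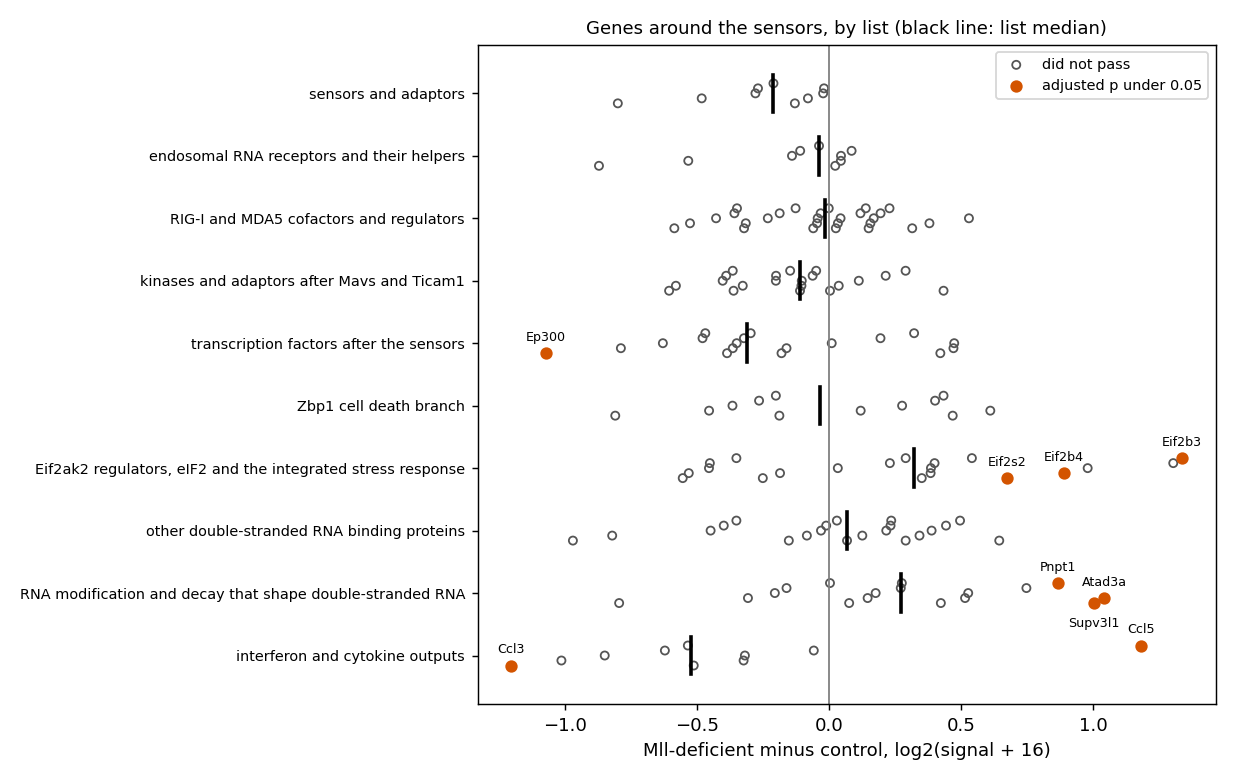
Differences (Mll-deficient minus control, log2(signal + 16)) of each tested gene, by list, with a black line at the list's median. Filled points passed an adjusted p of 0.05 and are named, open points did not, and the row of the 9 sensors and adaptors holds no filled point.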

How the data were processed

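The authors deposited linear intensity values, 1 for each probe set, and the submitters' processing notes name MAS5 5.0. From the values, each array had been scaled to the same trimmed mean. Further settings are not given in the sources used here. Scaling removes differences in total RNA per cell, and amplification of RNA from 1500 to 10000 cells, per the labels' protocols, favours 3' ends. No detection calls were used.

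Symbols came from the platform annotation (34958 probe sets with 1 symbol, 932 with several and not used for names, 9211 unnamed here), updated through Entrez identifiers and RefSeq (34754 found). Groups were compared on log2(signal + 16) with limma 3.58.1 in R 4.3.3 (lmFit, eBayes with an intensity trend, two-sided). Each adjusted p is from this fit over 27022 probe sets or, for pathway lists, 12580 genes by their brightest probe set. All 64 control probe sets were left out. Arrays are separate mice, labelled biological replicates, and their number limits the precision. Members and lists were chosen with earlier results of these data known.

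Named genes were the members, every gene of a pathway list that passed and, besides, the 3 next smallest p of each list, and the 5 genes closest to the members' mean. Any other named after its value was seen is marked, apart from Kmt2a and markers. The RNA quality ratio was tested by exact permutation over 252 assignments. The fit was tested on simulated data with 200 changed probe sets, where 122 were called, 3 of them unchanged. Same-numbered arrays had deviations correlated between -0.18 and 0.24, so no pairing was used.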

Additional observations from a re-analysis of the deposited data

Results flagged for a closer look

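In 42 groups of 5 arrays, 6 held an array whose gap to its neighbour was large against the group's range (Dixon's test), and chance alone flags about 1 group in 20. Control replicate 5 read 851.7 on Mavs 1439185_x_at and 8.97 on Dhx58 1420768_a_at, each the highest control. Control replicate 1 read 29.7 on Eif2ak2 1422005_at, the lowest control. Control replicate 3 read 88.0 on Adar 1439276_at, the lowest control and the array that made the groups overlap. Control replicate 4 read 8.23 on Ddx58 1446457_at, the lowest control. Mll-deficient replicate 1 read 14.8 on Tlr3 1422781_at, the highest of its group on a probe set below the filter.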

How the results depend on the processing

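The count of 0 members passing held by probe set under offsets 1 and 64, quantile normalization, median centring, no filter, the filter at the 60th percentile (13 probe sets left), no intensity trend, array weights and each of the 10 fits that left out 1 array, and by gene under the same alternatives. It became 1, Ddx58, with the RNA quality covariate (by probe set and by gene, added after the data had been seen) and when each gene was the mean of its probe sets (8 genes left). The replicate block also gave 0 by probe set and by gene, and the replicate numbers did not pair the arrays (correlations of deviations 0.05, 0.12, -0.12, -0.18 and 0.24).

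Differences near 0 changed sign without passing, and the cause was not tested. Quantile normalization put Eif2ak2 1440866_at at 0.11 and Adar 1425405_a_at at 0.0464. Median centring put them at 0.0374 and 0.0039, and Mavs 1439185_x_at at 0.0407. Array weights put that Mavs probe set at 0.23 (0.21 by gene) and Ticam1 at 0.0196 (0.0348 by gene). The RNA quality covariate put Eif2ak2 1440866_at at 0.0499. Over the fits that left out 1 array, 7 probe sets crossed 0: Dhx58 1451426_at from -0.40 to 0.013, Eif2ak2 1422006_at from -0.29 to 0.045 and 1440866_at from -0.23 to 0.19, Mavs 1439185_x_at from -0.29 to 0.29, Adar 1425405_a_at from -0.17 to 0.0432, Zbp1 1429947_a_at from -0.26 to 0.0899 and Ticam1 from -0.17 to 0.0837, with the same ranges by gene where that probe set was the brightest.

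Over all 27022 probe sets the count of calls was 887. It was 588 with no filter, 2433 with the covariate and between 303 and 1131 without 1 array. By gene it was 694, with 1610 under the covariate and between 307 and 873 without 1 array. The ratio of RNA quality differed by 0.09 for Gapdh alone and 0.29 for Actb alone. The tested probe sets of the 9 genes numbered 17 without control replicate 4. Dim signals limit Tlr3, 1446457_at and 1420769_at, whose values lie near the filter. They also limit Eif2ak2 1422006_at and Zbp1 1419604_at, where some arrays read below it.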
